A study of Drosophila melanogaster with 4 samples.

Results

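Hairy peaks on chromosome 4 and on heterochromatic and unplaced sequence were chosen by the name of the sequence they lie on, with no use of any measured value. They number 395 of the 13577 Hairy peaks called in Kc167 cells (2.91%), and fall into 3 groups. Chromosome 4 held 137 peaks. The placed heterochromatic sequences held 64: 3LHet had 32 of them, 2RHet had 16, 3RHet had 11 and 2LHet had 5. The unplaced sequences held 194, of which 178 lay on Uextra and 16 on U. The list names no peak on XHet or YHet. The other 13182 peaks lie on the large arms 2L, 2R, 3L, 3R and X and serve as the comparison.

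Hairy is a basic helix-loop-helix repressor of the Hes family, known from embryonic segmentation and from bristle patterning, which recruits the corepressor Groucho to its target genes. Chromosome 4 of Drosophila melanogaster is a small autosome in which active genes are interspersed with repeats, and it is known for binding of heterochromatin protein HP1a and of the chromosome-specific protein POF along much of its length. The Het sequences of release 5 of the genome are scaffolds assigned to the heterochromatin around the centromeres, which is rich in transposons and satellites and poor in genes. U and Uextra are collections of scaffolds that release 5 could not place. Their scaffolds are strung end to end in no biological order, so a distance between neighbouring peaks on them need not be a distance in the genome.

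The study used chromatin immunoprecipitation and sequencing (ChIP-seq) of 3 ChIP libraries made with KW3-h-D1, a polyclonal antibody raised in rabbit against a Hairy peptide, with 1 input library of chromatin that was not immunoprecipitated. All 4 libraries came from Kc167, an embryo-derived female cell line of late embryonic stage with the genotype se/e, and no treatment is named. The result is 1 list of peaks for the whole series, with no value per library and no read totals. The spread between the 3 ChIP libraries is therefore not known for any difference below, no p-value is given, and the depth is unknown. Peaks are not replicates, so the groups are described by counts, medians and quartiles, with exact 95% binomial intervals on shares. Those intervals cover counting error only, and neighbouring peaks are not independent. No gene expression was measured, so the identity of the cell line could not be checked against marker genes. A sequence or gene annotation of release 5 was not used here, so peaks are given by coordinates, with no gene and no sequence.

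Each peak carries a score from the authors' peak caller, read as −log10 of its p-value. Most scores in the list correspond to a whole number of fragments over 1 constant background of 157.836 fragments, which allows a fold over that background to be recovered. A peak is called on the constant background where its score is within 0.01 of such a value, and off it otherwise. Peak callers of this kind are known to use a higher, local background where they find one, but the list does not say which background each peak was set against. If a peak off the constant background had such a higher one, its recovered fold is bounded in 2 ways: its true fold over 157.836 fragments is at least that high, and its fold over its own local background is at most that high.

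Chromosome 4 carried many strong Hairy peaks beside weak ones like those of the large arms. Its scores ran from 7.43 to 353.13, with a median of 17.03 and quartiles of 11.88 and 45.09, while the peaks of the large arms had a median of 15.32 and quartiles of 11.28 and 23.82. The lower part of the 2 distributions lay close together and the upper part did not. A score of at least 50 was reached by 32 of the 137 peaks on chromosome 4 (23.4%, interval 16.6 to 31.3%), against 681 of the 13182 on the large arms (5.17%, interval 4.79 to 5.56%) and 5.43% of all peaks. A score of at least 100 was reached by 13 peaks on chromosome 4 (9.49%) and by 110 on the large arms (0.834%), where 0.935% of all peaks reached it. Chromosome 4 thus held 1.01% of all peaks and 10.2% of the 127 peaks with a score of at least 100.

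The pair of highest-scoring peaks on chromosome 4 stood alone. The highest, from 424407 to 426356, was 1950 bp wide with a score of 353.13, the rank of 7 among all 13577 peaks. Its nearest neighbours lay 26.4 kb to its left and 18.7 kb to its right. The neighbour on the right was the next highest, from 445026 to 445721, which was 696 bp wide with a score of 310.33 (rank 14). Nothing else was called within 13.5 kb of that narrow peak. Both lay off the constant background, and their recovered folds were 5.64 and 5.27.

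**Figure D1:**
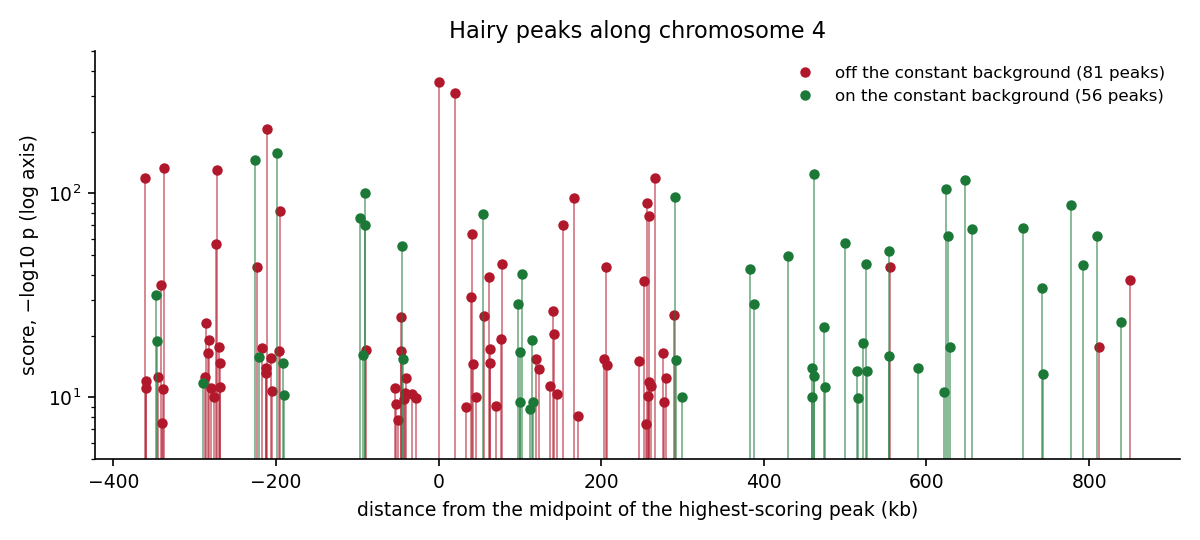
Score (−log10 p, log axis) of each of the 137 Hairy peaks on chromosome 4 against its distance in kb from the highest-scoring peak, in red for the 81 peaks off the constant background and green for the 56 on it. Red points fill the left and middle of the plot, and 31 of the 34 points right of the gap near 300 to 380 kb are green.

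Other strong peaks of the chromosome had weaker companions close by. The peak from 213971 to 215316 (score 206.1, recovered fold 4.30, off the constant background) closed a joined region of 3 peaks that began at 213025. From 199591 to 200865, a peak with a score of 145 had a neighbour 80 bp away. It lay on the constant background and corresponds to 577 fragments, 3.66-fold over it (counting interval 3.36 to 3.97). From 226369 to 227775, a further peak on the constant background reached a score of 157.6, 3.80-fold over it (counting interval 3.50 to 4.11). Near the left end, a peak from 62955 to 64859 scored 118.63 and a peak from 87104 to 88528 scored 132.53, both off the constant background. The peak at 62955 was the first on the chromosome.

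The remaining peaks among the 12 with the highest scores lay in all parts of the chromosome. The one from 152368 to 153059 scored 129.71 with a width of 692 bp, and that from 690956 to 692246 scored 119.47; both were off the constant background. Farther right, the peaks from 887173 to 887997 (score 124.11, 3.41-fold), from 1071817 to 1072645 (score 115.65, 3.31-fold) and from 1047586 to 1050266 (score 104.88, 3.18-fold) all lay on it. The last of these was the widest peak of the chromosome, at 2681 bp. The next widest lay from 577033 to 579516 (2484 bp, score 69.65) and from 1050551 to 1052815 (2265 bp, score 61.96). The peak at 1050551 followed the widest one after 284 bp. Of the 12 highest-scoring peaks, 7 lay off the constant background.

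Peaks off the constant background lay mostly on 1 side of chromosome 4. The 82.8 kb without a peak from 725157 to 807993, the second longest such interval of the chromosome, separated a left part with mostly such peaks from a right part with few of them. To its left, 78 of 103 peaks lay off the constant background (75.7%, interval 66.3 to 83.6%). To its right, 3 of 34 did (8.82%, interval 1.86 to 23.7%). This division was chosen after the values were seen, so it is a description of the chromosome and not a test. In all, 81 of its 137 peaks were off that background (59.1%), and 3568 peaks of the large arms (27.1%). Over all 13577 peaks the share was 28.2%.

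The share fell steeply along the chromosome, but not exactly at the interval without a peak. In each of the first 7 bins of 100 kb, between 61.1 and 100% of the peaks lay off the constant background. In the bin from 700001 to 800000 this was 4 of 7 peaks, all called before 725157. The peaks of that bin from 715141 on lay on the constant background, so the change began left of the interval. The bins from 800001 to 900000, from 1000001 to 1100000 and from 1100001 to 1200000 held 8, 7 and 3 peaks, and none lay off it. The exceptions on the right were the peaks from 979853 to 980974 (score 43.74), from 1237019 to 1237757 (score 17.62) and from 1275876 to 1276649 (score 37.65). On the left, 25 peaks lay on the constant background, among them 2 of the 5 with the highest scores. They included runs of neighbours, such as the 4 peaks between 328387 and 335785 and all peaks called between 522117 and 541358.

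The division was not one of score. Among peaks with a score of at least 50, 14 of 22 on the left lay off the constant background, against 0 of 10 on the right. Below a score of 20, it was 51 of 65 on the left and 1 of 14 on the right. The right part held fewer peaks, 7.25 per 100 kb of its span against 15.6 on the left, and these had a higher median score (31.4 against 16.2) and a greater median width (660.5 against 412 bp). Both parts held strong peaks, 10 of 34 with a score of at least 50 on the right and 22 of 103 on the left. Read depth, DNA copy number and the input signal along chromosome 4 were not analysed here, and their part in these values was not tested.

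In bins of 100 kb, peaks were spread more evenly over the first 1.3 Mb of chromosome 4 than over any of 89 windows of 1.3 Mb on the large arms. Any sequence of chromosome 4 past 1300000, where no peak was called, was left out, and its inclusion would raise the unevenness. The windows were not compared at another bin size. The 13 bins of chromosome 4 held 10.5 ± 4.37 peaks (SD over bins), from 3 to 18, and none was empty. The ratio of SD to mean was 0.415. In the 89 windows, laid end to end on the large arms, the same ratio ran from 0.484 to 1.81, with a median of 0.988. The window nearest to chromosome 4 in this respect, on 2R from 7800001 to 9100000, held 288 peaks. In number of peaks chromosome 4 was ordinary: its 137 peaks lay below 48 of the windows and above 41. Peaks covered 7.41% of its first 1.3 Mb, against a median of 7.94% over the windows.

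Its share of strong peaks ranked near the top of the windows. The 23.4% of its peaks with a score of at least 50 was exceeded in 1 of the 89 windows, at the left end of 2R from 1 to 1300000, where the share was 36.8% of 57 peaks. The next window held 13.5%. The median score of 17.03 was exceeded in 10 windows, and the share off the constant background, 59.1%, also in 10. Of those 10 windows, 6 lay on 2L. These ranks describe the list. They are not a test, since chromosome 4 is a single chromosome.

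**Figure D2:**
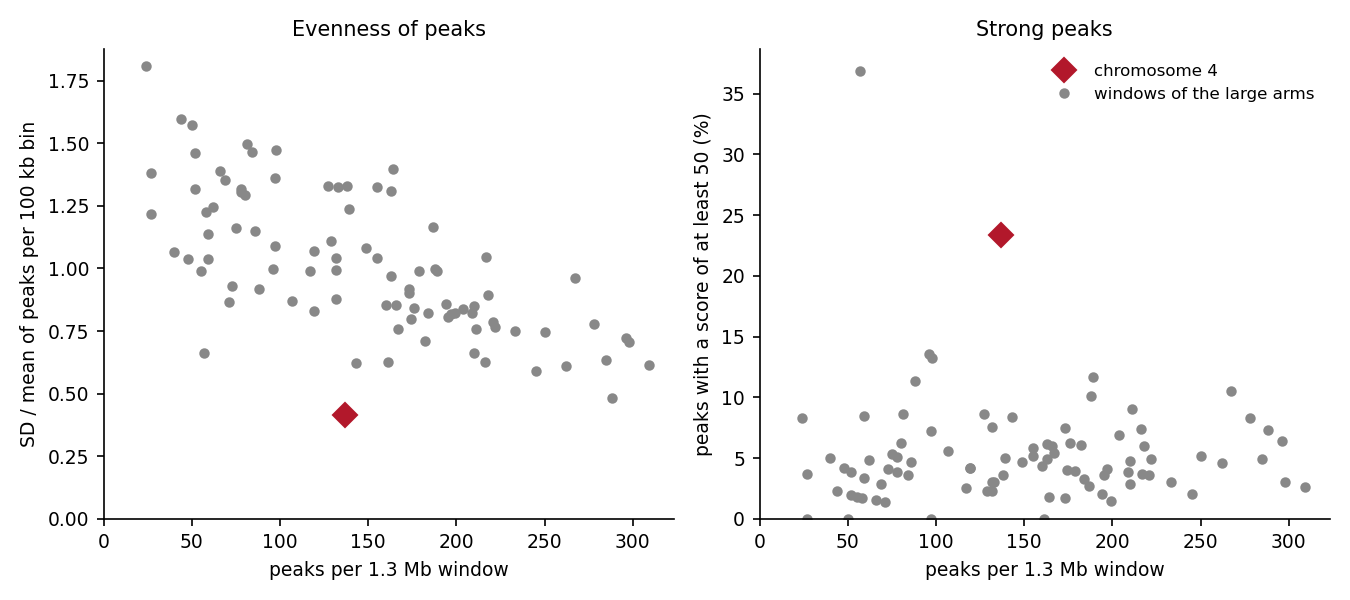
Each point is a window of 1.3 Mb: the first 1.3 Mb of chromosome 4 (red diamond) and 89 windows of the large arms (grey). The x axes give the number of Hairy peaks per window; the y axes give the SD divided by the mean of the number of peaks per 100 kb bin (left) and the percent of peaks with a score of at least 50 (right). Chromosome 4 lies below all grey points on the left and below 1 grey point, at 36.8%, on the right.

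Peaks of chromosome 4 formed small groups rather than long runs. Joined over gaps of at most 500 bp, its 137 peaks made 98 regions, of which 68 held 1 peak, 22 held 2, 7 held 3 and 1 held 4. The region of 4 lay from 378437 to 381457, and its highest score was 55.05. Regions of 1 peak made up 69.4% of those on chromosome 4 and 60.7% of the 7362 on the large arms. Up to 15 peaks were joined on the large arms, a maximum taken over many more regions. Another peak lay within 500 bp of 69 peaks on chromosome 4 (50.4%), against 8712 on the large arms (66.1%) and 65% of all peaks. The median distance between midpoints of neighbouring peaks was 2.96 kb, longer than in 80 of the 89 windows, whose median was 1.58 kb. The longest intervals between neighbouring peaks ran from 235016 to 328386 (93.4 kb), across the division described above (82.8 kb) and from 1081893 to 1143768 (61.9 kb). No other interval between neighbouring peaks exceeded 50 kb. The ends of the chromosome were not counted as intervals. No peak was called before 62955, a stretch also longer than 50 kb, or after 1276649.

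The placed heterochromatic sequences carried few Hairy peaks, and among these strong peaks were about as frequent as on chromosome 4. Their 64 peaks had a median score of 22.21 (quartiles 15.65 and 43.69), and 16 reached a score of at least 50 (25%, interval 15.0 to 37.4%), against 5.17% on the large arms. A score of at least 100 was reached by 4 peaks, 2 on 3LHet and 2 on 3RHet. Of the 64 peaks, 32 lay off the constant background (50%, interval 37.2 to 62.8%), against 28.2% of all peaks. Within placed Het the share was highest on 3LHet, a division made after the values were seen. It was 21 of 32 on 3LHet (65.6%, interval 46.8 to 81.4%) and 11 of 32 on the other 3 sequences together (34.4%). Of those 11, 7 were among the 16 peaks of 2RHet. The interval for those 3 sequences, 18.6 to 53.2%, includes the 28.2% of all peaks. It also includes the 50% of placed Het and overlaps the interval of 3LHet. Of the 64 peaks, 27 reached a recovered fold of 2 (42.2%), as did 50 on chromosome 4 (36.5%) and 79 on unplaced sequence (40.7%), against 2410 on the large arms (18.3%) and 18.9% of all peaks. The recovered fold follows from the score alone, so this is a further cut-off on score and not a second measure.

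On 3LHet, Hairy peaks gathered near the far end of the span that held peaks. Between 2189751 and 2410406 lay 17 of its 32 peaks, with scores from 9.22 to 180.66. They included its highest peak, from 2396723 to 2399035, with a score of 180.66 and a width of 2313 bp, off the constant background. The next, from 2190566 to 2191547, had a score of 177.14 in 982 bp. It lay on the constant background, with 632 fragments, 4.00-fold over it (counting interval 3.70 to 4.33). This was the highest fold among the 135 peaks of the 3 groups that lay on the constant background. A smaller group of 6 peaks between 571496 and 607401 ended in a peak from 605794 to 607401 with a score of 98.47. After it, 789 kb held no peak, up to a peak from 1396424 to 1397066 with a score of 68.75. That peak and 6 weaker ones, the last ending at 1834771, lay between the 2 groups.

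On 3RHet, 8 of 11 peaks lay between 1705311 and 1899502, and all 8 were on the constant background. The strongest were narrow. The peak from 1823590 to 1824381 was 792 bp wide with a score of 125.18, 3.43-fold over the background (counting interval 3.14 to 3.73), and that from 1808180 to 1808863 was 684 bp wide with a score of 118.8, 3.35-fold (3.07 to 3.65). A weak peak with a score of 15.24 followed the first after 167 bp, and one with a score of 17.42 followed the other after 90 bp. The third by score, from 1705311 to 1706362, had a score of 85.89 and was the widest of the sequence at 1052 bp. The 3 peaks off the constant background were the outlying ones, at 845724, 852719 and 2449355, with scores of 32.74, 22.3 and 10.51.

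Most of the 2RHet peaks were isolated: of its 16 peaks, 9 had no other within 10 kb (56.2%, against 5.35% of all peaks). The last 5, from 3179438 to 3199517, had a neighbour 542 to 1041 bp away, and no peak had one within 500 bp. The 16 peaks lay in 2 groups, 5 from 198025 to 472350 and 11 from 2289796 to 3199517, with 1817 kb between them. Repeats and assembly gaps of the Het sequences were not analysed here, and their part in long stretches without a peak was not tested. The 3 highest were each alone and each on the constant background: from 2775527 to 2776054 (score 73.12, 2.76-fold, counting interval 2.50 to 3.03), from 471551 to 472350 (score 65.75, 2.65-fold) and from 198025 to 198817 (score 60.31, 2.57-fold). No wider peak than 1093 bp was called there, from 3182665 to 3183757, with a score of 30.29.

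The 5 peaks of 2LHet were the weakest of the placed sequences at their upper end. The highest, from 123830 to 124589, scored 37.24. A pair from 168863 to 169649 and from 169784 to 170963, 134 bp apart, scored 25.25 and 28.54, which is 1.94-fold and 2.01-fold over the constant background. The peak at 169784 was the widest, at 1180 bp. With 5 peaks, no share on this sequence can be given with precision.

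**Figure D3:**
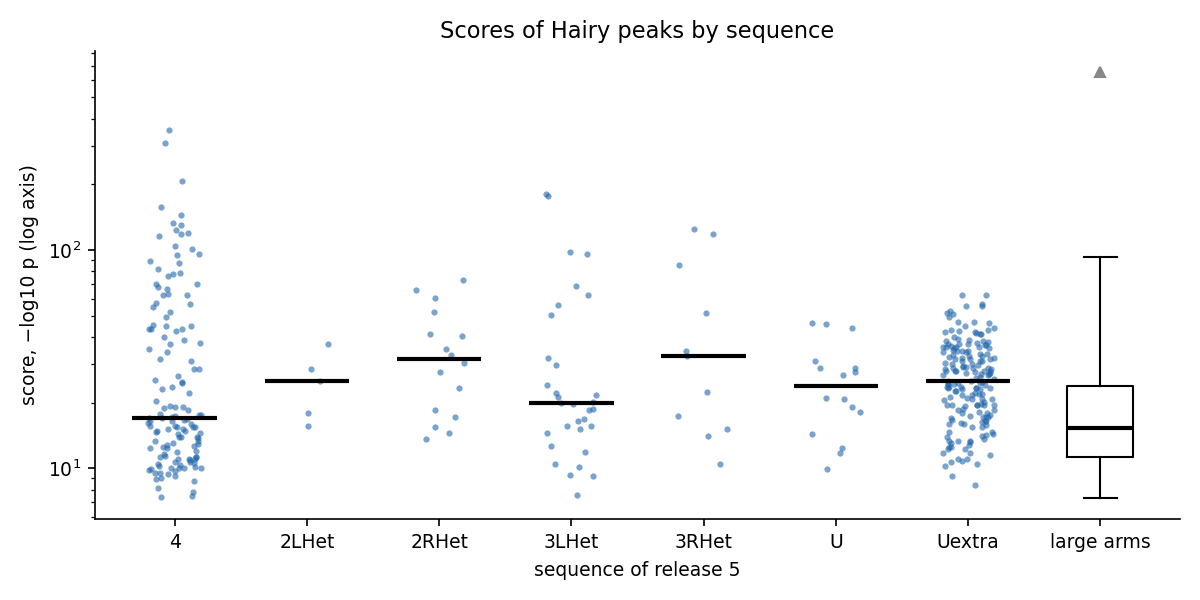
Score (−log10 p, log axis) of Hairy peaks by sequence: each point is 1 peak of chromosome 4, the placed Het sequences, U and Uextra, with the median as a bar, and the box shows the quartiles and median of the 13182 peaks of the large arms, with whiskers at their lowest and highest 1% and a triangle at their maximum. Chromosome 4 reaches 353.13, while Uextra has a higher median (25.22) and no peak above 62.38.

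Peaks on unplaced sequence were of middling strength, narrow and scattered. Their median score was 25.22 (quartiles 17.96 and 34.23), above that of the large arms, yet the highest of the 194 was 62.38. A score of at least 50 was reached by 8 of them (4.12%, interval 1.80 to 7.96%), all on Uextra, a share whose interval includes the 5.17% of the large arms. None of the 194 reached 100, against 0.935% of all peaks. The exact interval runs up to 1.88% and so includes that share. A limit of 3 counts, which a count of 0 allows, would be 1.55%. Scores from 20 to 50 held 122 of the 194 peaks. The higher median therefore came from the middle of the range, unlike on chromosome 4, where the median was close to that of the arms and the upper tail was long.

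At a given score, unplaced peaks were much narrower than those of the arms. Among peaks with a score from 20 to 50, the 122 unplaced ones had a median width of 373 bp (quartiles 288 and 477 bp), against 977.5 bp (quartiles 648 and 1481 bp) for 3734 peaks of the large arms. Of the 122, 116 were narrower than the lower quartile of the arms (95.1%), and 1 was wider than their median. Between 10 and 20, 38 of 61 were narrower than that quartile (62.3%). Placed Het peaks lay between, with 12 of 20 below the arms' lower quartile for scores from 20 to 50 (60%). In that range chromosome 4 lay close to the arms, with 7 of 26 (26.9%). For scores from 10 to 20, 24 of 65 peaks on chromosome 4 (36.9%) and 12 of 25 on placed Het (48%) lay below the arms' lower quartile for those scores. Stronger peaks on chromosome 4 were narrow as well: 11 of its 19 peaks with scores from 50 to 100 lay below the lower quartile of 1255.5 bp on the arms. Scaffold lengths of U and Uextra were not analysed here, and their part in the widths was not tested.

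**Figure D4:**
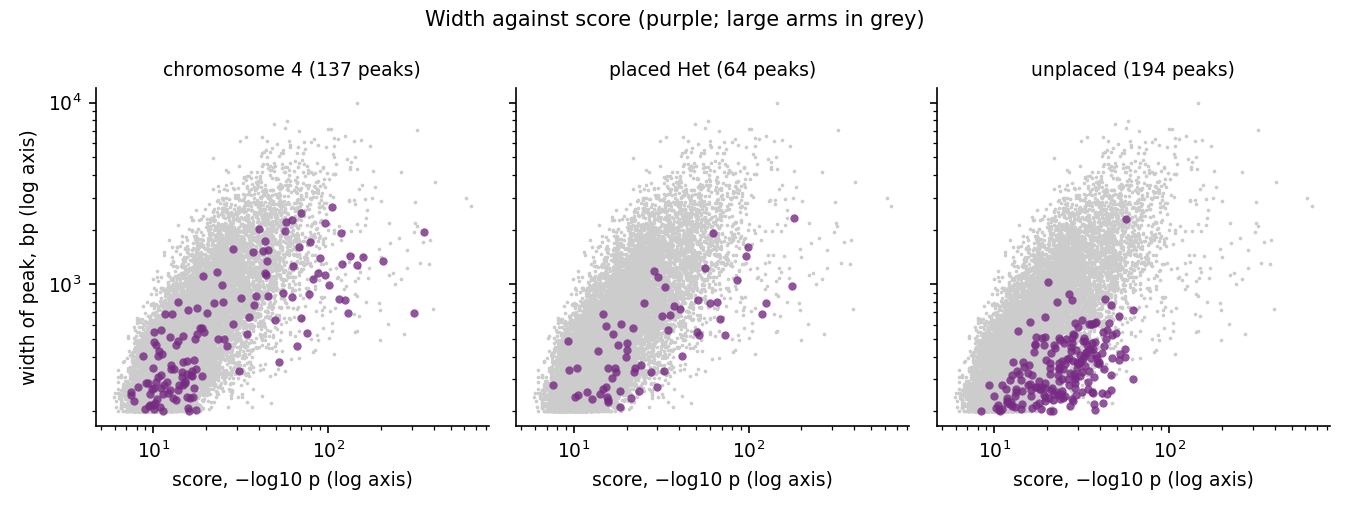
Width (bp) against score (−log10 p), both on log axes, for peaks of chromosome 4, of the placed Het sequences and of unplaced sequence (purple), over the 13182 peaks of the large arms (grey). Unplaced peaks lie along the lower edge of the grey cloud, with a median of 373 bp for scores from 20 to 50, against 977.5 bp on the arms.

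Width also followed score less closely on unplaced sequence. Across its 194 peaks, Spearman's rho of width and score was 0.47, while it was 0.78 over the 137 peaks of chromosome 4, 0.72 over the 64 placed Het peaks and 0.75 over the large arms. Within placed Het it was 0.46 over the 16 peaks of 2RHet, 0.68 over the 32 of 3LHet and 0.92 over the 11 of 3RHet. Unplaced scores also spanned a narrower range, up to 62.38, and the part of that range was not tested. Width and score come from the same called signal, and these coefficients describe the list only.

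Most unplaced peaks lay off the constant background, 147 of 194 (75.8%, interval 69.1 to 81.6%), with 135 of 178 on Uextra and 12 of 16 on U. This held at every level of score with more than a few peaks: 82.8% for scores from 10 to 15, 78.1% from 15 to 20, 74.2% from 20 to 30 and 75% from 30 to 50. On the large arms, the shares in the same ranges were 27.3, 27.2, 28.6 and 30.8%. For chromosome 4 the share was 67.5% from 10 to 15, 56.2% from 30 to 50, 36.8% from 50 to 100 and 53.8% from 100 on. In placed heterochromatin the counts were small and followed no steady order. Off the constant background lay 7 of 9 peaks from 10 to 15, 7 of 16 from 15 to 20 and 9 of 11 from 20 to 30. From 30 to 50 it was 3 of 9, and from 50 to 100 it was 3 of 12. The local background itself is not in the list. Reads that map to more than 1 place are common in repeated sequence, and how they were treated is not given in the sources used here; their part in these values was not tested.

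**Figure D5:**
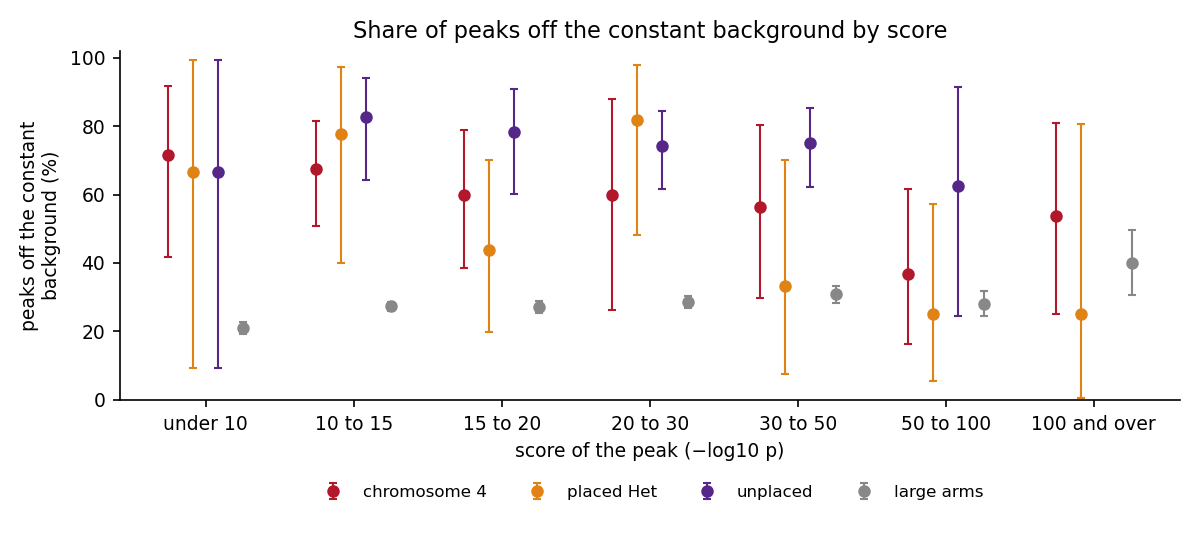
Percent of peaks off the constant background by score range (−log10 p) for chromosome 4, the placed Het sequences, unplaced sequence and the large arms, with exact 95% binomial intervals as bars. Unplaced peaks stay between 62.5 and 82.8%, against 20.9 to 40% on the large arms, and there is no unplaced peak with a score of 100 or more.

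The strongest Uextra peak, from 6214812 to 6215113, was 302 bp wide with a score of 62.38. It lay on the constant background, with 410 fragments, 2.60-fold over it (counting interval 2.35 to 2.86). The next, from 10026512 to 10027230, scored 62.02 in 719 bp. The peak from 169360 to 171647 scored 56.63 and, at 2288 bp, was by far the widest on unplaced sequence. The following ones by score lay from 8380091 to 8380490 (55.57), from 7915173 to 7915611 (55.45, 2.49-fold on the constant background) and from 13938983 to 13939397 (52.37). Apart from the peak of 2288 bp, these top 6 were 302 to 719 bp wide, which is narrower than the lower quartile of the arms at their score.

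Nearly all Uextra peaks were single. Joined over gaps of at most 500 bp, the 178 peaks formed 171 regions, of which 7 held 2 peaks and none more. Those with the highest scores lay from 16973877 to 16975134 (highest score 43.17), from 14734155 to 14734724 (37.34) and from 3440151 to 3441270 (34.93). In their listed coordinates, 145 of the 178 had no other peak within 10 kb (81.5%), against 5.35% of all peaks. These coordinates run across scaffold ends.

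On U, the highest of 16 peaks lay from 7557872 to 7558187 (score 46.36), from 9549546 to 9549807 (46.11) and from 9409751 to 9410000 (43.94). All 3 were 250 to 316 bp wide and off the constant background, with recovered folds of 2.34, 2.34 and 2.30. The widest, from 9340993 to 9341882, measured 890 bp with a score of 26.73 and lay on the constant background, 1.97-fold over it (counting interval 1.76 to 2.20). A peak from 23 to 344 lay at the very start of the sequence.

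For peaks called on the constant background, the fold follows from the recovered number of fragments. Scores falling at random would also meet the tolerance for 7.02 to 8.35% of peaks in these groups, and such peaks were not set apart. That rate is not their share among the peaks called on the constant background. Their share there can be larger where most peaks lay off it, as on unplaced sequence (75.8% off). Among the peaks so called, the 32 on placed Het had a median of 2.11-fold (quartiles 1.78 and 2.59). The median was 1.99-fold (1.81 and 2.13) for the 47 unplaced peaks and 1.88-fold (1.66 and 2.59) for the 56 of chromosome 4. The 9614 such peaks of the large arms had a median of 1.69-fold (1.58 and 1.89). The upper quartiles of chromosome 4 and of placed Het were therefore alike, and that of unplaced sequence was lower. The greatest fold on the constant background was 4.00 on placed Het, 3.80 on chromosome 4 and 2.60 on unplaced sequence, against 7.93 on the large arms.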

How the data were processed

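ChIP-seq of Hairy in Kc167 cells gave 3 ChIP libraries and 1 input library, grouped by their titles. Per the submitters' processing notes, the tools were MACS2, BWA and CASAVA (1.7.0.2 and 1.7.0.3) and the build was BDGP5; roles are not stated. Per the file headers, coordinates are on FlyBase release 5. The threshold, the use of the input, the pooling of libraries and the treatment of reads with several positions are also not stated. The deposited list holds 1 score per peak, taken to be a −log10 p-value because its 44 common scores from 10 to 20 (at least 25 peaks each) lie within 0.00557 of Poisson tail probabilities over 1 background. That background, 157.836 fragments, was set in steps of 0.001 to place most peaks within 0.006 of such values; scores falling at random would meet the 0.01 tolerance for 7.02 to 8.35% of peaks in the groups compared. The fit of the background was tested on simulated data; this does not bear on whether the score is a −log10 p-value.

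Positions are midpoints in bins, and joined peaks are at most 500 bp apart. Counting intervals of folds are exact Poisson intervals (95%) on the recovered number of fragments. They do not cover the case of a score that meets the tolerance by chance. No test across peaks was made, because no value per library is at hand. Peaks named are the 12 highest and 3 widest on chromosome 4, the 3 highest and the widest on each Het sequence and U, the 6 highest and the widest on Uextra, and the joined regions with the most peaks; the others named were chosen after their values were seen. The groups and measures were chosen with earlier results of these data known. Motifs and genes were not analysed, because no release 5 sequence was used. Python 3.11.15, numpy 2.4.6, scipy 1.17.1, pandas 2.3.3 and matplotlib 3.10.9 were used.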

Additional observations from a re-analysis of the deposited data

How the results depend on the processing

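Of 60 alternative values, 45 stayed within a set limit of the reported one. The limit was its 95% interval, or 1.5 times for counts, or the SD over bins for peaks per 100 kb. Some of the 45 could hardly move. The mean of peaks per 100 kb is the same by arithmetic in bins of 50 kb. Fitting the background on the large arms alone kept 97.1% of all peaks. The other 15 alternative values follow. Among the 50% of all peaks with the highest score, the median score was 41.3 on chromosome 4 and 27.97 on unplaced sequence, the share at a fold of 2 was 62.5% and 49.1%, and the median width on chromosome 4 was 827 bp; selection by score raises all of these. With peaks joined over 500 bp, chromosome 4 had a median width of 691 bp, 45.9% of regions at a fold of 2 and a median distance of 5091 bp. Joined over 5000 bp, it had 47 regions in place of 98. Within 0.02 of the ladder of scores, 68.0% of unplaced peaks lay off the constant background, since a wider tolerance takes in more peaks. The next settings were chosen after seeing the data. For scores from 20 to 50, the median width was 848 bp on chromosome 4 and 373 bp on unplaced sequence. Without 3LHet, 34.4% of placed Het peaks lay off the constant background. On chromosome 4, this share was 75.7% before and 8.82% after the second longest interval. Ranks among windows shifted by 650 kb stayed within their intervals, and the background fitted on the large arms alone was again 157.836 fragments. No paired analysis was possible because peaks are listed once for the whole series; leaving out a replicate was not possible either. Motif sites were not run, as no release 5 genome was used. What the unknown depth means for weak peaks was not assessed.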

Other observations

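Relative to the number of genes, chromosome 4 held more Hairy peaks than each large arm. A RefSeq gene table of release 6 lists 80 protein-coding genes on chromosome 4, which is 1.71 peaks per gene, against 13831 on the large arms, which is 0.953 peaks per gene. The X, at 1.19, came nearest, and 3L, at 0.744, was lowest. The table was used for counts of genes per chromosome only, no peak was assigned to a gene, and release 6 has a different extent of the arms near the centromeres.

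Uextra peaks were unevenly spread over its coordinates. From 8 to 17 Mb there were 106 peaks, 11.8 per Mb, while the parts from 0 to 8 Mb and from 17 to 28 Mb held 4.88 and 3 per Mb. In the denser part 88 of the 106 lay off the constant background, against 25 of 39 and 22 of 33 in the other two, and the median widths were 340, 344 and 354 bp. The borders were chosen after seeing the data, and the order of scaffolds along Uextra has no biological meaning.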
